A study of Homo sapiens with 2 samples.

Results

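The PARP genes described here are PARP1, PARP2, PARP3, PARP4, PARP8, PARP9, PARP10, PARP12, PARP14 and PARP16. A probe set, the group of short probes that reports a transcript on the array, counted as a member if 1 of these symbols was its only gene symbol in the platform annotation. This gave 18 of 54675 probe sets, for 10 of 19775 genes. RNA came from 2 samples labelled as U87, an established human glioblastoma line, each on 1 array. One sample was labelled as transfected with siRNA to FOXM1, a cell cycle transcription factor of the forkhead family, and the other with a non-target control siRNA, both by a lipid reagent and both collected after 48 hours. They are called the FOXM1-labelled and the control-labelled array below. Neither label names a further treatment, and transient siRNA transfection can leave untransfected cells in a culture. With 1 array per group there was no spread between samples and no test of any difference between the conditions.

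PARP enzymes use NAD+ to attach ADP-ribose to proteins. PARP1 and PARP2 build long chains of it at broken DNA, where the chains recruit repair factors, and PARP3 attaches single units at double-strand breaks. PARP9, PARP10, PARP12 and PARP14 are known from other cells as genes that interferon turns on. They act in antiviral defence and in the signalling of the interferon pathway itself. PARP4 belongs to the vault, a large cytoplasmic ribonucleoprotein particle, PARP16 sits in the endoplasmic reticulum membrane and modifies sensors of unfolded protein, and PARP8 is little studied.

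The floor, below which a signal was treated as not detected, was 77.7 on the FOXM1-labelled array and 60.8 on the control-labelled array. It is the 90th percentile of 135 probe sets for olfactory receptor genes, which these cells are not thought to use. The only error at hand comes from probe sets of the same gene. For 5476 genes with 2 or more probe sets above both floors, the log2 differences of the brightest pair differed with an SD of 0.65, which corresponds to 0.46 per probe set. It holds no difference between cultures.

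Several facts of the arrays bear on all values below. FOXM1 read 1343 on the FOXM1-labelled array and 1520 on the control-labelled array in its single probe set, a log2 difference of -0.18, so the targeted transcript gave no clear check of the labels. U87 cells are known to lack CDKN2A, CDKN2B and MTAP through a deletion on chromosome 9. CDKN2A read 421 on the FOXM1-labelled array and 3467 on the control-labelled array, MTAP 76.3 and 619, and CDKN2B 31.8 and 350, so the control-labelled array goes against its cell line label. On the FOXM1-labelled array CDKN2A lay above the floor and the other 2 genes below it. An effect of the siRNA and a difference between the cells therefore cannot be told apart, and every direction below is that of the arrays as labelled. Of 10 glial markers, 6 lay above the floor on each array, with summed signals of 44866 on the FOXM1-labelled array and 23514 on the control-labelled array, of which VIM, which many other cell types also express, made up 40017 and 21179. Of the 8 detected, 2 were at least 2-fold higher on the FOXM1-labelled array and 1 was lower. SOX2 read 59.2 on the FOXM1-labelled array and 680 on the control-labelled array. CHI3L1 read 2867 and 296, NES 261 and 54.0, and OLIG2 266 and 270. GFAP, the defining marker of astrocytes, and AQP4 lay above the floor on neither array. Of 8 fibroblast and mesenchymal markers, 6 and 5 lay above the floor, with summed signals of 22681 and 2114 and a median log2 difference of 2.73. For 6 epithelial markers, 4 were above the floor on each array and the sums were 1104 and 12762. DSP at 336 and 9707 and KRT18 at 380 and 2655 made up most of the second sum. Of the 5 detected, these 2 were at least 2-fold lower and none was at least 2-fold higher, with KRT8 at 265 and 220. For 6 measured leukocyte markers 2 and 1 were above the floor, with PTPRC, the common leukocyte antigen, on neither. For 4 endothelial markers the numbers were 3 and 1, at sums of 391 and 88.6. The part of these differences in the PARP values was not tested. For the ACTB control, the ratio of its 3' signal to its 5' signal, which rises as RNA is degraded, was 4.21 on the FOXM1-labelled array and 6.79 on the control-labelled array. The same ratio for the GAPDH control was 1.09 on the FOXM1-labelled array and 1.26 on the control-labelled array.

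Of the 10 PARP genes, 6 were at least 2-fold higher on the FOXM1-labelled array, 1 was at least 2-fold lower and the other 3 differed by less. Each of the 10 exceeded the floor on 1 array or both. PARP10 and PARP14, 2 of the 6 higher genes, exceeded it only on the FOXM1-labelled array in the probe sets that stand for them. Detection alone therefore set their direction. Among all 13865 detected genes, 16.0% were higher by 2-fold or more and 15.4% lower by 2-fold or more. The median log2 difference of the 10 genes was 1.20, against 0.01 over all detected genes. The 2 groups of the family differed in their medians. The DNA-damage PARPs (PARP1, PARP2 and PARP3) had log2 differences from -2.63 to 1.30, with a median of -0.77. The interferon-linked PARPs (PARP9, PARP10, PARP12 and PARP14) ran from 1.77 to 2.78, with a median of 2.31. PARP14 and PARP10 set the ends of that second range, and by their detection they could only be higher. PARP9 and PARP12, above the floor on both arrays, were at 1.97 and 2.65. PARP3, the highest of the DNA-damage genes, ranked 1575 from the highest among the 13865 detected genes. With the brightest probe set of each gene, no interferon-linked gene lay within the range of the DNA-damage genes, but with the median over all probe sets of each gene PARP10 at 0.35 and PARP14 at 1.06 did, and with a floor 2 times as high PARP14 did at 0.77. In bulk RNA, fewer cells that carry a transcript and less of it per cell cannot be told apart. The difference of the medians was -3.08 on the log2 scale, and with 1 array per group it carries no p-value.

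**Figure D1:**
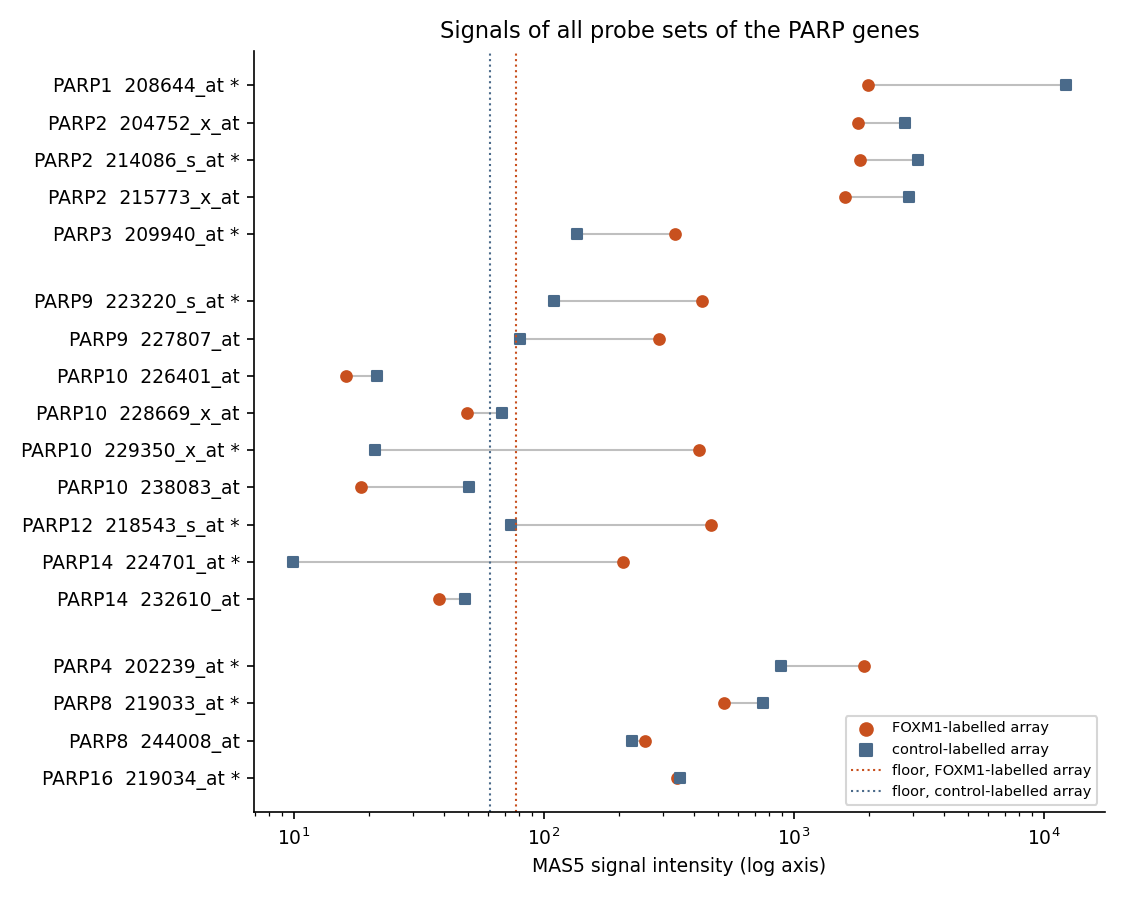
MAS5 signal intensity (log axis) of all 18 probe sets of the PARP genes. Circles show the FOXM1-labelled array and squares the control-labelled array, dotted lines are the 2 floors, and an asterisk marks the probe set that stands for its gene. PARP1 lies farthest to the left of its control value among probe sets above both floors, and the 4 interferon-linked genes each have at least 1 probe set far to the right of its control value, with those of PARP10 and PARP14 starting below the floor.

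PARP1, the main sensor of DNA strand breaks, read 1983 on the FOXM1-labelled array and 12297 on the control-labelled array in its single probe set. It was thus 6.20-fold lower, at 16.1% of the control signal and a log2 difference of -2.63. It ranked 253 from the lowest among the 13865 detected genes. The difference is larger than the SD of 0.46 per probe set, but that SD holds no difference between cultures. No further PARP1 probe set was there to check the difference.

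PARP2, which makes the same chains at breaks, differed less and its probe sets varied little. On the FOXM1-labelled array its 3 probe sets read 1837, 1808 and 1610, against 3139, 2788 and 2897 on the control-labelled array. All 3 were lower, with log2 differences of -0.77, -0.62 and -0.85 and an SD of 0.11. Their IDs end in _x_at or _s_at, which means that the probes can match more than 1 transcript. The brightest was 1.71-fold lower, which is under the 2-fold threshold. With the hybridisation controls set equal, PARP2 was at -1.08 and passed it.

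PARP3 went the other way. It read 336 on the FOXM1-labelled array and 136 on the control-labelled array, 2.46-fold higher in its single probe set. With the hybridisation controls set equal its log2 difference of 1.30 was 0.997, just under the threshold. The DNA-damage PARPs thus did not share a direction, and their median of -0.77 is the value of PARP2 alone.

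All 4 interferon-linked PARPs were higher on the FOXM1-labelled array in the probe sets that stand for them. Only PARP9 and PARP12 were above the floor on both arrays. PARP9, a macrodomain protein that pairs with the ubiquitin ligase DTX3L, had a pair of probe sets. They read 432 and 290 on the FOXM1-labelled array, against 110 and 80.8 on the control-labelled array. The log2 differences of 1.97 and 1.84 correspond to 3.92-fold and 3.59-fold, with an SD of 0.09. PARP12, a zinc finger protein that attaches single ADP-ribose units, read 466 on the FOXM1-labelled array and 74.2 on the control-labelled array, 6.28-fold higher. The control value lay close to its floor of 60.8, and with a floor 2 times as high the log2 difference of 2.65 was 1.94.

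In the probe sets that stand for them, PARP14 and PARP10 were above the floor only on the FOXM1-labelled array. Their folds are therefore lower bounds against the floor of the other array. PARP14, a macrodomain protein that modifies signalling factors of immune cells, read 207 on the FOXM1-labelled array and 9.94 on the control-labelled array, at least 3.40-fold higher. Its other probe set read 38.1 and 48.6, below the floor on both arrays. With a floor 2 times as high PARP14 was at 0.77, under 2-fold. PARP10, which attaches single ADP-ribose units and carries an RNA recognition motif, read 418 on the FOXM1-labelled array and 21.2 on the control-labelled array in the probe set that stands for it, at least 6.87-fold higher. The ID of that probe set ends in _x_at, and the other 3 did not show the difference. They read 49.5, 18.6 and 16.2 on the FOXM1-labelled array, against 68.5, 50.1 and 21.6 on the control-labelled array, and only the value of 68.5 lay above its floor. With the median of its probe sets PARP10 was at 0.35, which is the value the 2 floors alone give. The PARP10 difference therefore rests on 1 probe set.

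The promoters of PARP9, PARP12 and PARP14 are shown because these genes were higher together and because the interferon-stimulated response element (ISRE), the site bound by the interferon-activated transcription factor complex, can be looked for in them. RefSeq start sites (GRCh38.p14) gave windows of 250 bases before to 50 bases after the start for 8 of the 10 PARP genes, 11 windows in all; those of PARP4 and PARP10 were not analysed here. The core GAAANNGAA was found on either strand in 3 of the 11, in PARP9, PARP12 and PARP14. It was in none of those of PARP1, PARP2, PARP3, PARP8 and PARP16. Of all 35116 windows 8.11% held it, and of the 46 windows of the fixed list of interferon-stimulated genes 58.7% did. In the lines below, each 120 bases long and read 5′ to 3′ on the strand of the gene, capitals mark the core or its reverse complement. The first 4 lines end at or up to 3 bases past the start site and hold it, and the line of PARP1 ends at the start site and has no capitals.
PARP9 (chr3:122564301-122564420, minus strand): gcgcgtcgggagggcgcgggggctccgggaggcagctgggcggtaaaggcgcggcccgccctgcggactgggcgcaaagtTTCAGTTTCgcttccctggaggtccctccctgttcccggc
DTX3L (chr3:122564221-122564340, plus strand): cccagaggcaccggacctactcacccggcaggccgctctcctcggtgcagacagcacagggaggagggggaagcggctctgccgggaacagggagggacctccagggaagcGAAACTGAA
PARP12 (chr7:140062952-140063071, minus strand): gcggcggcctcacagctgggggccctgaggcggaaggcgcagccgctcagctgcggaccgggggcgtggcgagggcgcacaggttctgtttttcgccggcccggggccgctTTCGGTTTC
PARP14 (chr3:122680719-122680838, plus strand): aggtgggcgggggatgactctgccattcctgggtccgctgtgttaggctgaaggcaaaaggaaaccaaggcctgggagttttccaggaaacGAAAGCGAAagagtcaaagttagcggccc
PARP1 (chr1:226408094-226408213, minus strand): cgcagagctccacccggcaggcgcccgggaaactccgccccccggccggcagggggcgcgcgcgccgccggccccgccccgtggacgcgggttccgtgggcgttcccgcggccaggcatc

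PARP9 and its partner gene DTX3L lie head to head, and the core in both lines is the same stretch of DNA, chr3:122564332-122564340, read on opposite strands. It begins 40 bases before 1 of the 2 PARP9 start sites and 6 bases before that of DTX3L. The other PARP9 window held no core. In PARP14 the core begins 29 bases before the start and in PARP12 9 bases before it. Other motifs were searched on both strands. A STAT site, TTCNNNGAA, was in the windows of PARP14 and PARP2 and in 7.66% of all windows, and an E2F site, TTTGGCGC or TTTCCCGC, was in that of PARP12 and in 2.27% of all. The cell cycle homology region TTTGAA was in no PARP window and in 15.2% of all. A match describes the letters only and says nothing of binding in these cells.

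The remaining PARP genes showed no common direction. PARP4, the vault enzyme, read 1914 on the FOXM1-labelled array and 889 on the control-labelled array, 2.15-fold higher. With the hybridisation controls set equal it was at 0.80 on the log2 scale, under 2-fold. MVP, the major vault protein that forms the shell of the particle, was 8.18-fold higher, at 1800 against 220. PARP8 read 529 and 254 in its 2 probe sets on the FOXM1-labelled array, against 757 and 225 on the control-labelled array, so that its probe sets disagreed in sign with log2 differences of -0.52 and 0.17. PARP16 read 342 on the FOXM1-labelled array and 352 on the control-labelled array, a log2 difference of -0.04. Of the 2 unfolded protein sensors that PARP16 is known to modify, EIF2AK3 (PERK) was at -0.01 and ERN1 (IRE1) at 0.50. Over the fixed list of 7 sensors and effectors 1, DDIT3, was at least 2-fold higher, at 6.25-fold.

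**Figure D2:**
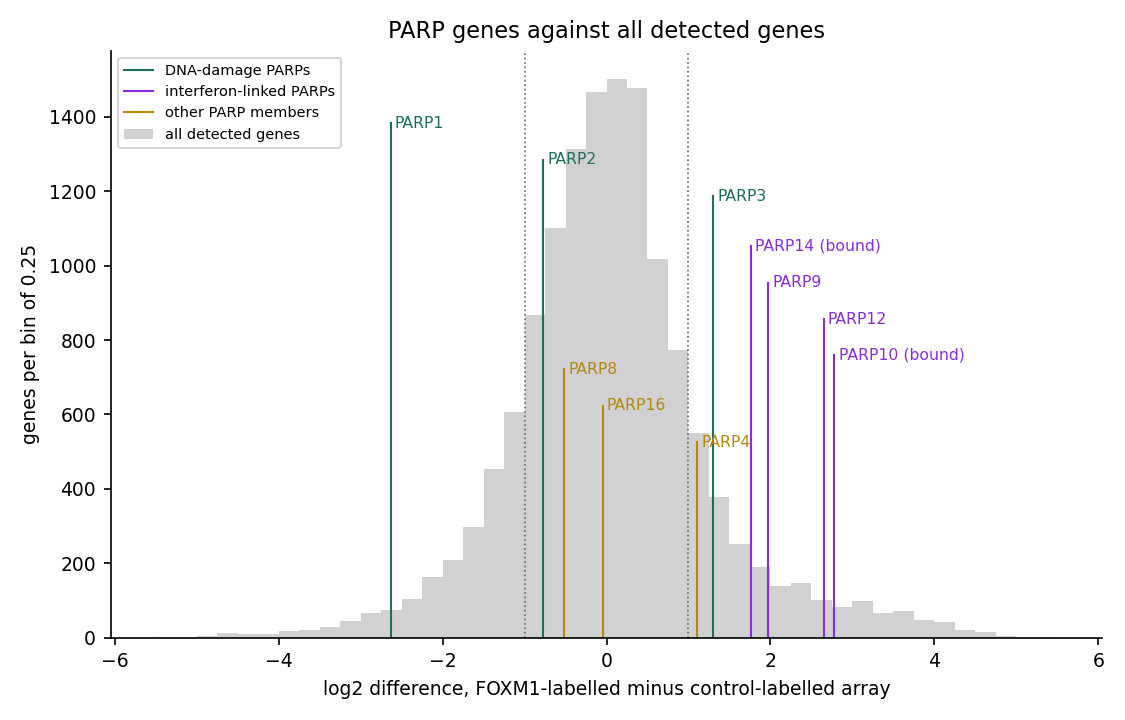
Number of detected genes in bins of 0.25 of the log2 difference (FOXM1-labelled array minus control-labelled array, grey), with the 10 PARP genes as coloured lines whose heights carry no value and dotted lines at 2-fold. The 4 interferon-linked PARPs lie between 1.77 and 2.78, PARP1 lies at -2.63, and PARP10 and PARP14 are lower bounds.

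The other genes of the family, fixed as a list of 7, were mostly close to the control. Of the 6 detected, 1 was at least 2-fold higher and none lower, and their median was -0.23. The median was 0.28 without _x_at and _s_at probe sets, and the mean was 0.13. The tankyrase gene TNKS, whose product acts at telomeres and in Wnt signalling, read 1290 on the FOXM1-labelled array and 451 on the control-labelled array, 2.86-fold higher. Its 4 probe sets ran from 0.35 to 1.51, where 0.35 is the value the 2 floors alone give. TNKS2 was at -0.36, PARP6 at -0.11, PARP11 at -0.86 and TIPARP, a target of the aryl hydrocarbon receptor, at 0.94. ZC3HAV1, the zinc finger antiviral protein and a further PARP known from other cells as interferon-induced, was at -0.38 (1764 against 2299), and its 3 probe sets ran from -0.53 to -0.19. PARP15, which lies next to PARP14 on the chromosome, was below the floor on both arrays at 19.4 and 15.5.

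In their brightest probe sets, the genes that remove, read or assist ADP-ribose differed less than PARP1 at -2.63. MACROH2A2 at -2.53 and DTX3L at 2.45 came close to it in size. Of 8 measured removal genes 7 lay below 0, with a median of -0.48, and 1 was at least 2-fold lower. PARG, the main enzyme that degrades the chains, read 961 on the FOXM1-labelled array and 1352 on the control-labelled array, a log2 difference of -0.49. MACROD2, which removes the last unit, was at least 2.13-fold lower, while NUDT9, which splits free ADP-ribose, was at 0.50. HPF1, the cofactor that directs PARP1 and PARP2 to serine, was at -0.04 with 3076 against 3165. Of the 8 detected readers and partners, 2 were lower and 1 was higher by 2-fold or more, and the median was -0.50. The macrodomain histone gene MACROH2A2 was 5.76-fold lower, and TIMELESS, a replication fork protein that binds PARP1, was 3.01-fold lower. The chromatin remodeller gene CHD1L and the ubiquitin ligase gene RNF146, both readers of the chains, were at -0.65 and -0.64. The 5 probe sets of CHD1L ran from -2.07 to 0.37. The 1 higher gene was DTX3L, at 842 on the FOXM1-labelled array and 154 on the control-labelled array, 5.46-fold higher, against 3.92-fold for its partner PARP9.

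The list for single-strand break repair, the pathway PARP1 starts, was lower in part. It also takes in glycosylase genes, among them TDG, NTHL1 and NEIL2, so it is wider than that pathway. Of 17 measured genes, all above both floors, 7 were at least 2-fold lower, 1 was higher and the median was -0.57. The glycosylase gene TDG was 3.54-fold lower, the ligase gene LIG1 3.03-fold and the glycosylase gene NTHL1 2.70-fold. LIG3, the ligase that works with XRCC1, was 2.77-fold lower, but its 6 probe sets ran from -2.07 to 0.84. XRCC1 itself read 808 on the FOXM1-labelled array and 503 on the control-labelled array, 1.61-fold higher. It was 1 of 5 genes of the list above 0, beside 12 below. The glycosylase gene NEIL2 was 3.51-fold higher. None of the 17 was as far below the control as PARP1.

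NAD+, the substrate of PARP enzymes, is made from nicotinamide by NAMPT. NAMPT read 21631 on the FOXM1-labelled array and 3462 on the control-labelled array, 6.25-fold higher, and its 4 probe sets ran from 2.50 to 2.77. NNMT, which methylates nicotinamide, was 8.51-fold higher and NMNAT2, which completes NAD+ in neurons, 6.09-fold. The other probe sets of NNMT and NMNAT2 reached down to 0.35, which is the value the 2 floors alone give. Of the 13 detected genes of NAD+ synthesis and use, these 3 were at least 2-fold higher and none was lower, with a median of 0.24. That median was 1.01 without _x_at and _s_at probe sets and -0.06 with the hybridisation controls set equal. NMNAT1 was at 0.88, NMRK1 at 0.86 and NMNAT3 at most at -0.58.

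The interferon pathway around PARP9, PARP10, PARP12 and PARP14 differed mainly among its targets. Of 34 detected interferon-stimulated genes, 22 were higher and 1 was lower by 2-fold or more, and the median was 1.33. IFI44 was 16.4-fold higher, SAMD9 11.6-fold, UBE2L6 11.0-fold, PSMB9 10.8-fold and the DNA sensor gene IFI16 9.85-fold, and the bounds for GBP1 and IFI44L were 11.0-fold and 9.51-fold. MX1, BST2, XAF1 and CMPK2, which belong to the same list, lay below the floor on both arrays. Of 14 detected receptor and relay genes, 5 were at least 2-fold higher, 1 lower and the median was 0.41. IRF9, the DNA-binding part of the complex that binds the ISRE, read 481 on the FOXM1-labelled array and 151 on the control-labelled array, 3.20-fold higher. SOCS3 was 7.24-fold, IRF7 2.68-fold, IRF1 2.35-fold and SOCS1 at least 3.64-fold higher, and the receptor gene IFNGR1 was 2.57-fold lower. The probe sets of SOCS3 ran from 0.19 to 3.11. The interferon genes IFNB1 and IFNL1 were below the floor on both arrays.

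**Figure D3:**
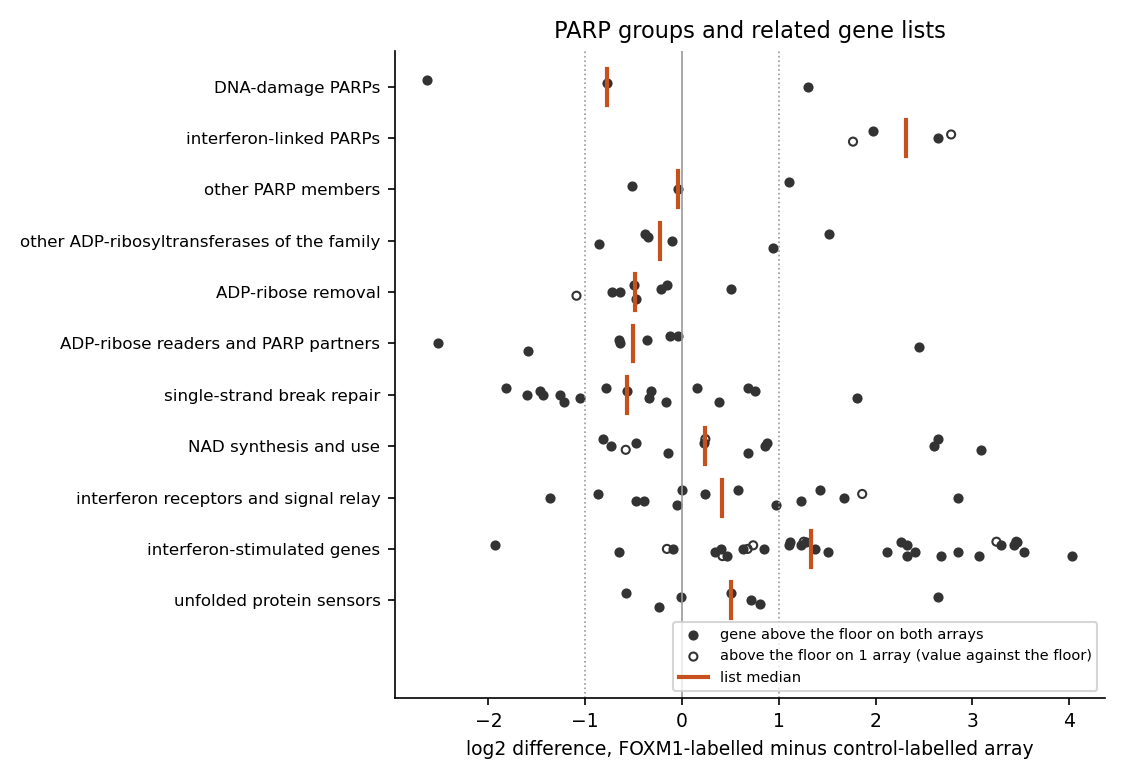
Log2 difference (FOXM1-labelled array minus control-labelled array) of each detected gene in the 3 PARP groups and in the related lists. Filled points are genes above the floor on both arrays, open points are values against the floor of 1 array, and bars are list medians. The median is 2.31 for the interferon-linked PARPs, 1.33 for the interferon-stimulated genes and -0.57 for the single-strand break repair list.

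The place of the PARP genes on the chromosomes was looked at after their values were seen, with the order of protein-coding genes taken from RefSeq. Each gene was set beside the nearest 10 detected genes on either side. Of the 20 neighbours of PARP1 on chromosome 1, 9 were lower and 1 was higher by 2-fold or more, beside 15.4% and 16.0% of all detected genes, and the median was -0.91. The gene next to it, LIN9, a subunit of the MuvB complex of cell cycle promoters, read 187 on the FOXM1-labelled array and 1264 on the control-labelled array, 6.78-fold lower. DNAH14 was 15.9-fold lower, COQ8A 11.1-fold, ZNF678 6.43-fold and the lamin B receptor gene LBR 3.72-fold. PARP2, near the start of the gene order of chromosome 14, had 13 such neighbours, with a median of -0.70, and 3 of them were lower and 2 higher by 2-fold or more. Among them were the repair nuclease gene APEX1 at -0.79, CCNB1IP1 at -1.24, ARHGEF40 at 1.29 and RNASE1 at 3.19 or more.

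PARP9 and PARP14 share a neighbourhood on chromosome 3, in the order PARP9, DTX3L, PARP15 and PARP14. The 20 detected neighbours of PARP9 include PARP14 and DTX3L and had a median of 0.17, with 4 higher and 1 lower by 2-fold or more. The genes next to the block, KPNA1 and HSPBAP1, were at 0.63 and 0.19. Farther out, CSTA at 3.08 and MYLK at 2.80 were higher than PARP9. For PARP10 and PARP12, no detected neighbour was as much higher as the gene itself, and the medians of their neighbours were -0.26 and -0.35. PARP8 lies next to EMB, which was at -5.47, but the median around it was 0.22. For PARP3, PARP4 and PARP16 the medians of the neighbours were -0.06, -0.12 and -0.25.

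**Figure D4:**
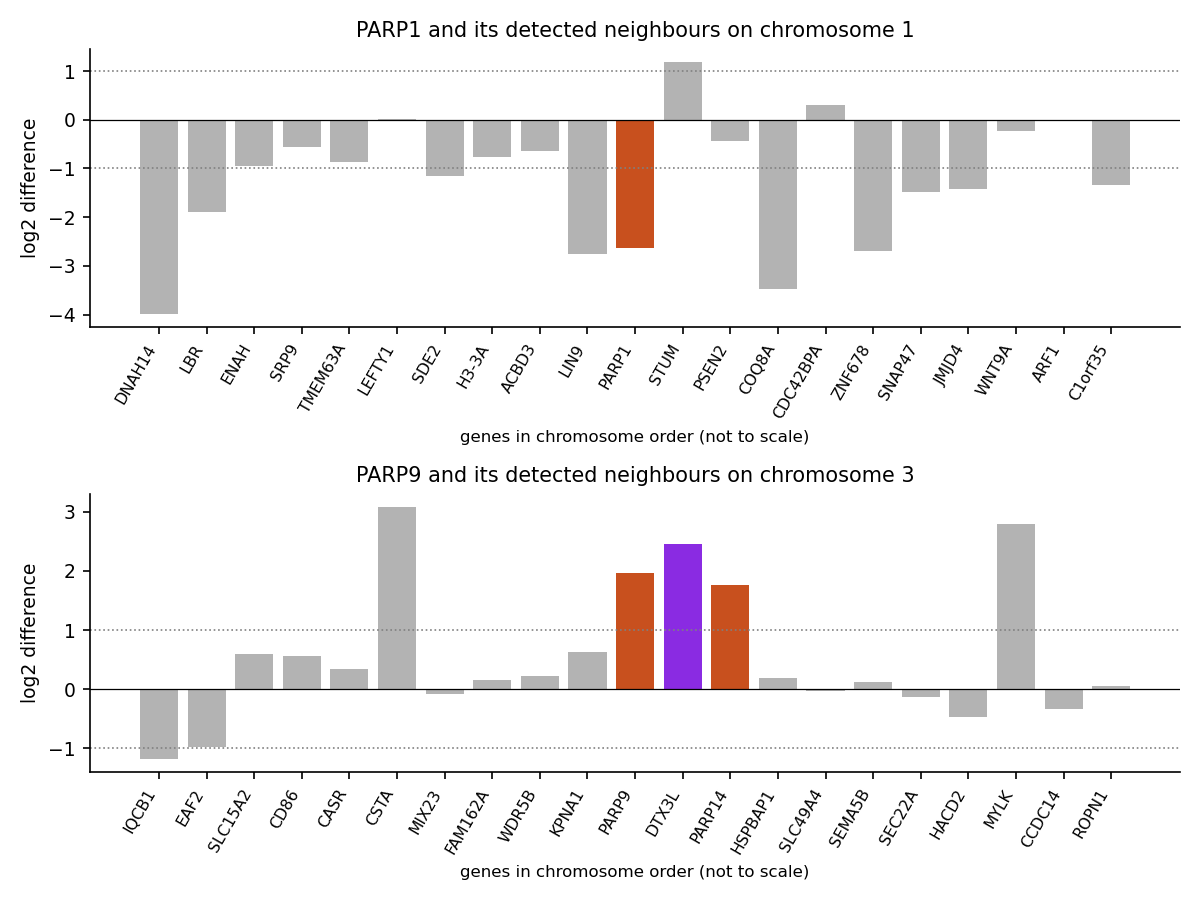
Log2 difference (FOXM1-labelled array minus control-labelled array) of PARP1 (top) and PARP9 (bottom) and of the 10 nearest detected genes on either side, in chromosome order. PARP genes are orange and DTX3L is purple, dotted lines mark 2-fold, and genes above the floor on 1 array only, such as PARP14, are drawn against the floor. Of the 20 neighbours of PARP1, 9 lie at or below -1, whereas PARP9, DTX3L and PARP14 stand above the genes next to them and CSTA and MYLK stand higher farther out.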

How the data were processed

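Per the submitters' processing notes, the deposited values were made with MAS5, an algorithm that subtracts mismatch signal and scales whole arrays. The deposited unit is a linear signal intensity for each probe set, and the authors' scaling left a trimmed mean (2% off each end) of 500.1 on both arrays. Its version and settings are not stated in the sources used here. Per the labels' protocols, TRIZOL RNA was labelled with a 3' IVT kit, which reports mainly the 3' end of transcripts. Probe sets were named by the platform annotation (41097 with 1 symbol, 1801 with several, which name no gene), with symbols updated by gene ID in 99.9% (GRCh38.p14 gene table). No build underlies the values, and coordinates are given for promoter windows only.

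Signals under the floor were raised to it before log2. Each gene took the value of its brightest probe set (mean log2 signal over both arrays). The difference is FOXM1 siRNA minus non-target siRNA. The number of arrays, 1 per group, limits the precision, so no test was run. The groups, lists and members were chosen with earlier results of these data known. Named genes were all PARP genes and, per list, up to 5 with the largest difference above both floors and up to 2 bounds. HPF1, PARG, DTX3L, IRF9 and XRCC1 were named besides, as was every gene of the short lists. Others were named for their position. The calculation was tested on simulated data. Quantile and loess scaling (span 0.3) used limma 3.58.1 in R 4.3.3, the rest Python 3.11.15 with numpy 2.4.6 and pandas 2.3.3.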

Additional observations from a re-analysis of the deposited data

How the results depend on the processing

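The sign of the DNA-damage and interferon-linked medians and of their difference was the same under all 11 alternatives tried: median centring, quantile and loess scaling, hybridisation controls set equal, no floor, a floor 2 times as high, a common floor, the median of probe sets, no _x_at and _s_at probe sets, a pseudocount of 50 and the mean in place of the median. Median centring and equal hybridisation controls shift every gene by the same amount. They could not change the difference of the medians, which stayed at -3.08. The DNA-damage median ran from -1.08 to -0.66. The signals of PARP1, PARP2 and PARP3 lay above every floor used. No floor, a floor 2 times as high and a common floor therefore could not change this median, which stayed at -0.77. With PARP1 below and PARP3 above it, this median is the value of PARP2 wherever PARP2 had a probe set. Without _x_at and _s_at probe sets it was -0.67, midway between PARP1 at -2.63 and PARP3 at 1.30, which went opposite ways. The interferon-linked median moved to 3.48 without a floor, 1.80 with a floor 2 times as high, 1.48 with the median of probe sets and 1.81 over the genes left without _x_at and _s_at probe sets. The difference of the medians under the same settings was -4.25, -2.58, -2.26 and -2.47. The values without a floor use the control signals of PARP10 and PARP14, which lie below it. The number of PARP genes at least 2-fold lower became 2 with the hybridisation controls set equal and 2 at a 1.5-fold threshold, PARP1 and PARP2 in both. The number at least 2-fold higher was between 4 and 6. In the hybridisation control setting 3200 of all genes were lower and 1567 higher, against 2132 and 2218 as deposited, and the median of all genes shifted from 0.01 to -0.29. Without _x_at and _s_at probe sets 7 PARP genes were left, since PARP2 and PARP12 then had no probe set and PARP10 none above the floor. No paired analysis was possible because each group holds 1 array. With no replicate arrays, no sample could be left out.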
